A study of Rattus norvegicus with 9 samples.

Results

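Vsnl1, Nnat, P2ry1, Ppp1r1a, Col27a1, Etv1 and Chic1 are 7 genes whose islet transcripts were high in Zucker Diabetic Fatty (ZDF) rats on rosiglitazone. They were chosen by their measured values, as genes higher on arrays of drug-treated islets than on arrays of withdrawal islets, untreated islets or both, so those differences are given below as a description, with no test. No numerical threshold was part of the choice. The 7 genes had 13 probe sets among the 31042 probe sets of the table that were not controls, and were 7 of 14217 genes that could be named. Of the 13 probe sets, 12 passed the filter on dim probe sets, and each gene is described by its brightest one. The rats were male and fa/fa, lacking a working leptin receptor, and all were fed the Purina 5008 diet. The treated group received rosiglitazone, which activates the nuclear receptor PPAR gamma, at 3 mg per kg body weight as powdered Avandia tablets in that diet from week 5 to week 9 of age, with islets taken at 9 weeks. The withdrawal group received the same dose from week 5 to week 9 and islets were taken 2 weeks later, at 11 weeks. The untreated group never received the drug and islets were taken at 13 weeks. Each group had 3 arrays, called biological replicates in the labels, which do not give the number of animals behind an array. Since the groups also differed in age at sampling, drug and age cannot be told apart in any comparison.

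The 7 genes belong to different protein families. Vsnl1 encodes visinin-like protein 1, a calcium-binding protein of the neuronal calcium sensor family that moves to membranes when calcium rises, and it has been linked to cyclic AMP and insulin secretion in beta cells. Nnat encodes neuronatin, a small membrane protein of the endoplasmic reticulum made from an imprinted gene, which in mouse beta cells associates with the signal peptidase complex that trims preproinsulin. P2ry1 encodes a receptor for extracellular ADP that signals through Gq and phospholipase C. Ppp1r1a encodes inhibitor 1, which blocks protein phosphatase 1 once protein kinase A has phosphorylated it. Col27a1 encodes a fibrillar collagen chain best known from cartilage. Etv1 encodes an ETS transcription factor of the PEA3 subfamily, whose activity is raised by ERK signalling. Chic1 encodes a cysteine-rich hydrophobic protein from a gene on the X chromosome.

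The promoters of 3 of these genes are shown because their transcripts were high together on treated arrays but took different positions on withdrawal arrays. RefSeq promoter sequences of build GRCr8 were matched for 5 of the 7 genes (Vsnl1, P2ry1, Col27a1, Etv1 and Chic1). The windows below are the 250 bases before the annotated start, read in the direction of transcription. On withdrawal arrays the means of Vsnl1 and P2ry1 lay between those of the other groups, whereas that of Chic1 did not. Capitals mark the searched motif found there.
Vsnl1, chr6:39878557-39878806, minus strand: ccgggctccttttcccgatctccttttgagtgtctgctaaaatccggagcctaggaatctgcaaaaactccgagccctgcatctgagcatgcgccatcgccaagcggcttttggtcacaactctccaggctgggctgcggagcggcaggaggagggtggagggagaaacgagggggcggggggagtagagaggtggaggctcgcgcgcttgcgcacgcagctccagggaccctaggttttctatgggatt
P2ry1, chr2:147391411-147391660, plus strand: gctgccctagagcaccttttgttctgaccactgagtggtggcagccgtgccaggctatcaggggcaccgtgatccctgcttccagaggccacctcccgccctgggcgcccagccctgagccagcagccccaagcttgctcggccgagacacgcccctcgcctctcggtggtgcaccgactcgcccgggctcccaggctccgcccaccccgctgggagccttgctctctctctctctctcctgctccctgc
Chic1, chrX:72427601-72427850, plus strand: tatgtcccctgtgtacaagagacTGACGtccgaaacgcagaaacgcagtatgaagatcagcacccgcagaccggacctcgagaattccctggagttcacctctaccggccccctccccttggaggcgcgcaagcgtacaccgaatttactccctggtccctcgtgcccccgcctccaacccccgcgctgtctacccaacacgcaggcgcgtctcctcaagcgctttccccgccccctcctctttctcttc

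The motifs CRE (TGACGTCA), CRE core (TGACG), nuclear receptor site (AGGTCA), DR1 (a direct repeat of AGGTCA spaced by 1 base, the element PPAR binds), ETS core (CCGGAA) and E-box (CAGCTG) were searched on both strands of these windows. A full CRE contains its core, and DR1 contains the nuclear receptor site. Chic1 held a CRE core 227 bases before the start, and Etv1 an E-box 171 bases before it. No other match was found in the 5 windows. Over all 33469 promoter windows of the same length, 18.2% held a CRE core, 12% the E-box, 14.1% the nuclear receptor site, 12.6% the ETS core, 1.59% the full CRE and 0.0508% a DR1. The windows of the 5 genes had between 52.4% (Etv1) and 69.2% (P2ry1) G and C, against a median of 51.2% over all windows. These matches describe letters in a window and not sites of binding.

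Values are log2 probe set summaries as the authors deposited them, and the arrays differed in spread in a way that moved with the groups. Across probe sets, the SD of an array was between 1.65 and 2.00 and was largest on treated replicate 1. The median difference over the tested probe sets of the brightest decile was 0.53 for treated minus untreated, 0.72 for treated minus withdrawal and −0.17 for withdrawal minus untreated. In the dimmest decile it was −0.03, −0.06 and 0.04. Most differences are therefore also given after quantile normalization, which gives every array the same distribution and brings these decile medians to within 0.06 of 0. The treated arrays also differed among themselves in markers of other cells. The mean of 12 stellate and matrix markers was 10.3, 8.89 and 9.58 on treated replicates 1 to 3, and 9.35 to 9.90 on the other arrays. That of 12 macrophage and myeloid markers was 7.97, 6.56 and 7.25, and 7.14 to 7.84 on the other arrays. On both lists treated replicate 1 was the highest and treated replicate 2 the lowest of the 9 arrays. Beta cell markers were bright on every array, with a list mean of 11.5 on each treated array, 10.7 to 10.9 on withdrawal arrays and 10.8 to 11.1 on untreated arrays. The list mean of acinar markers was 13.4 to 13.5 on treated arrays, 13.3 to 13.5 on withdrawal arrays and 13.3 to 13.5 on untreated arrays, near the top of the range of the arrays. In such bulk samples, fewer cells of a type and less RNA per cell cannot be told apart.

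Vsnl1, the calcium sensor, was 9.38, 9.32 and 9.06 on treated arrays, 7.80, 7.58 and 7.64 on withdrawal arrays and 7.31, 6.80 and 7.16 on untreated arrays (probe set 1368854_at). The 3 groups did not overlap and fell in the order treated, withdrawal, untreated. Group means were 9.25 ± 0.17 (treated), 7.67 ± 0.11 (withdrawal) and 7.09 ± 0.26 (untreated; SD, n = 3 each), so treated exceeded untreated by 2.16 and withdrawal by 1.58. A difference of 2.16 on the log2 scale is a 4.48-fold ratio of array signal. After quantile normalization the differences were 1.76 and 1.06. The dimmer probe set of Vsnl1, 1368853_at, gave 2.19 and 1.52, again with no overlap between the groups.

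Nnat, the imprinted membrane protein of the endoplasmic reticulum, was 8.76, 9.53 and 9.35 on treated arrays, 7.73, 7.65 and 7.60 on withdrawal arrays and 7.35, 6.88 and 7.0 on untreated arrays (probe set 1369999_a_at). These groups were also separate and in the same order, with treated replicate 1 the lowest of the treated arrays. Group means were 9.21 ± 0.40 (treated), 7.66 ± 0.06 (withdrawal) and 7.08 ± 0.24 (untreated; SD, n = 3 each). Treated exceeded untreated by 2.14, a 4.40-fold ratio, and exceeded withdrawal by 1.55. After quantile normalization these were 1.76 and 1.07, and without treated replicate 1 they were 2.36 and 1.78 on the deposited scale.

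P2ry1, the ADP receptor, varied most among the treated arrays, at 7.10, 8.84 and 8.22, against 6.82, 6.86 and 6.96 on withdrawal arrays and 5.95, 6.01 and 6.20 on untreated arrays (probe set 1370606_at). Treated replicate 1 was close to the withdrawal arrays, the other treated arrays were more than 1 log2 unit above them, and the withdrawal arrays lay above all untreated arrays. Group means were 8.05 ± 0.88 (treated), 6.88 ± 0.07 (withdrawal) and 6.05 ± 0.13 (untreated; SD, n = 3 each), which gave differences of 2.00 and 1.18 for treated minus untreated and treated minus withdrawal. After quantile normalization the differences were 1.79 and 0.91, and treated replicate 1, at 6.86, fell below the withdrawal arrays, at 6.90, 6.95 and 7.0. The difference from withdrawal depended on single arrays: it was 1.65 without treated replicate 1 and 0.78 without treated replicate 2. On treated replicate 1, P2ry1 and Nnat were lowest among the treated arrays. The list means of stellate and matrix, macrophage, duct, endothelial, neural, beta cell and other islet hormone cell markers were each highest there. Single markers could differ, such as Aif1 of the macrophage list, which was lowest there at 7.19. The part of cell composition in these values was not tested.

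Ppp1r1a, the phosphatase inhibitor, was the brightest of the 7, at 10.9, 10.7 and 10.6 on treated arrays, 9.02, 8.85 and 8.97 on withdrawal arrays and 9.03, 8.99 and 9.33 on untreated arrays (probe set 1386968_at). Treated arrays stood apart from both other groups, which overlapped each other. Group means were 10.8 ± 0.15 (treated), 8.95 ± 0.09 (withdrawal) and 9.12 ± 0.18 (untreated; SD, n = 3 each). Treated exceeded untreated by 1.64, a 3.11-fold ratio, and withdrawal by 1.81, a 3.50-fold ratio. After quantile normalization these were 1.05 and 1.08, each smaller by more than 1.5 times. The dimmer probe set, 1383191_at, gave 1.39 and 1.44 as deposited.

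Col27a1, the fibrillar collagen chain, was 9.68, 9.47 and 9.68 on treated arrays, 8.23, 8.24 and 8.46 on withdrawal arrays and 7.80, 7.90 and 7.54 on untreated arrays (probe set 1375708_at). The groups did not overlap, and withdrawal again lay between the others. Group means were 9.61 ± 0.12 (treated), 8.31 ± 0.13 (withdrawal) and 7.75 ± 0.19 (untreated; SD, n = 3 each). Treated exceeded untreated by 1.86, a 3.64-fold ratio, and withdrawal by 1.30. After quantile normalization the first difference was 1.38 and the second 0.69, smaller by more than 1.5 times.

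Etv1, the ETS factor, was 9.32, 9.00 and 8.97 on treated arrays, 7.42, 7.26 and 7.62 on withdrawal arrays and 7.78, 7.72 and 7.85 on untreated arrays (probe set 1392477_at). Here the order was different: withdrawal arrays were the lowest, below all untreated arrays by a small margin. Group means were 9.10 ± 0.19 (treated), 7.43 ± 0.18 (withdrawal) and 7.78 ± 0.06 (untreated; SD, n = 3 each). Treated exceeded untreated by 1.31 and withdrawal by 1.66, and after quantile normalization by 0.89 and 1.18. The 4 dimmer probe sets of Etv1, the dimmest of which did not pass the filter, gave smaller differences from untreated, from 0.46 to 0.75. In 2 of these 4, 1382593_at and 1397015_at, treated and untreated arrays overlapped. The mean over the probe sets of Etv1 that passed the filter differed by 0.76 from untreated, so the size of the Etv1 difference depends on the probe set.

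Chic1, the X-linked cysteine-rich protein, was 9.30, 8.87 and 8.72 on treated arrays, 7.57, 7.22 and 7.31 on withdrawal arrays and 7.94, 7.34 and 7.59 on untreated arrays (probe set 1377412_at). The treated arrays were above the rest, and the withdrawal and untreated arrays overlapped. Group means were 8.96 ± 0.30 (treated), 7.37 ± 0.18 (withdrawal) and 7.63 ± 0.30 (untreated; SD, n = 3 each). Treated exceeded untreated by 1.34, a 2.53-fold ratio, and withdrawal by 1.60, a 3.03-fold ratio, and after quantile normalization by 0.94 and 1.14.

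**Figure D1:**
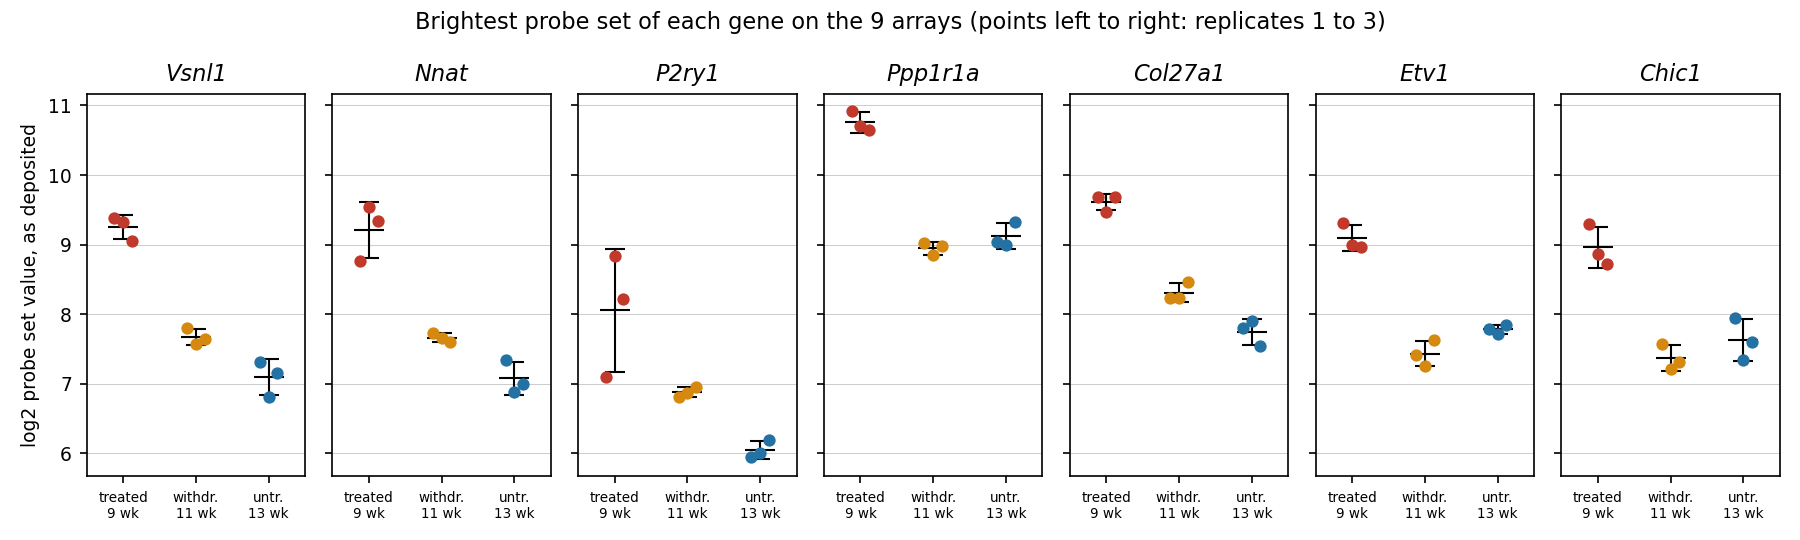
Log2 value as deposited (vertical axis) of the brightest probe set of each gene on the 3 treated, 3 withdrawal and 3 untreated arrays, with ages in weeks below. Points are arrays, long dashes are group means and error bars are 1 SD (n = 3). All treated points lie above all others in each panel, with P2ry1 on treated replicate 1 (7.10) nearest to the withdrawal arrays.

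As deposited, all 7 genes had treated arrays wholly above untreated arrays, as did 31.2% of all tested probe sets, and treated arrays wholly above withdrawal arrays, as did 39.0%. The background of these contrasts was wide: limma called (adjusted p under 0.05) 28.1% of the 20695 probe sets between treated and untreated arrays, 20.9% higher and 7.24% lower on treated arrays, and 43.8% between treated and withdrawal arrays, 32.6% higher and 11.2% lower. After quantile normalization 17.2% and 29.1% were called, 7.75% and 14.6% higher. After it, P2ry1 on treated arrays overlapped the withdrawal arrays, as given above. These contrasts chose the genes, so the counts carry no information beyond the choice. By size of the treated minus untreated difference, the dimmer and the brighter probe set of Vsnl1 ranked 4 and 5 of 20695, Nnat 6, P2ry1 8, Col27a1 12, Ppp1r1a 25, Chic1 60 and Etv1 63. For treated minus withdrawal the order was different, with Ppp1r1a at rank 3, Etv1 at 9, Chic1 at 12, Vsnl1 at 13, Nnat at 15, Col27a1 at 57 and P2ry1 at 122. These ranks depended on the scaling. After quantile normalization they were, against untreated arrays, P2ry1 6, Vsnl1 8, Nnat 9, Col27a1 20, Ppp1r1a 58, Chic1 98 and Etv1 133, and against withdrawal arrays Etv1 15, Chic1 22, Ppp1r1a 28, Nnat 35, Vsnl1 37, P2ry1 108 and Col27a1 474. They also depended on the probe set. The dimmer one of Vsnl1 stayed at 4 against untreated arrays and went from 17 to 12 against withdrawal arrays. The dimmer tested ones of Etv1 ranked from 1047 to 4152 against untreated arrays as deposited. The genes were of middle to high brightness, from a mean log2 of 6.99 (P2ry1) to 9.61 (Ppp1r1a), where the median of all probe sets shifted upward on treated arrays.

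**Figure D2:**
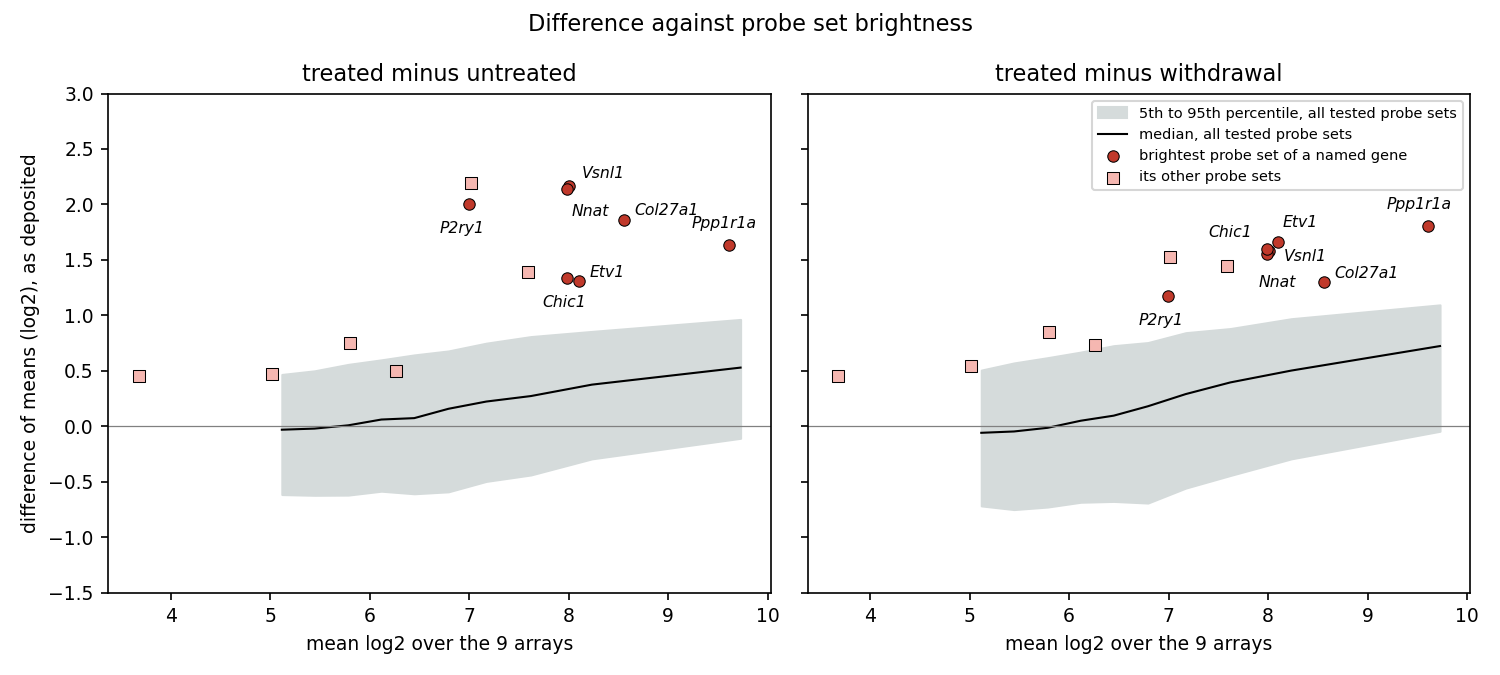
Difference of group means on the log2 scale as deposited (vertical axis) against mean log2 over the 9 arrays (horizontal axis), for treated minus untreated (left) and treated minus withdrawal (right). The line and grey band are the median and the 5th to 95th percentiles of tested probe sets in brightness deciles. Circles, the brightest probe sets of the 7 genes, lie above the band in both panels. Squares are their other probe sets, of which the dimmest did not pass the filter.

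**Figure D3:**
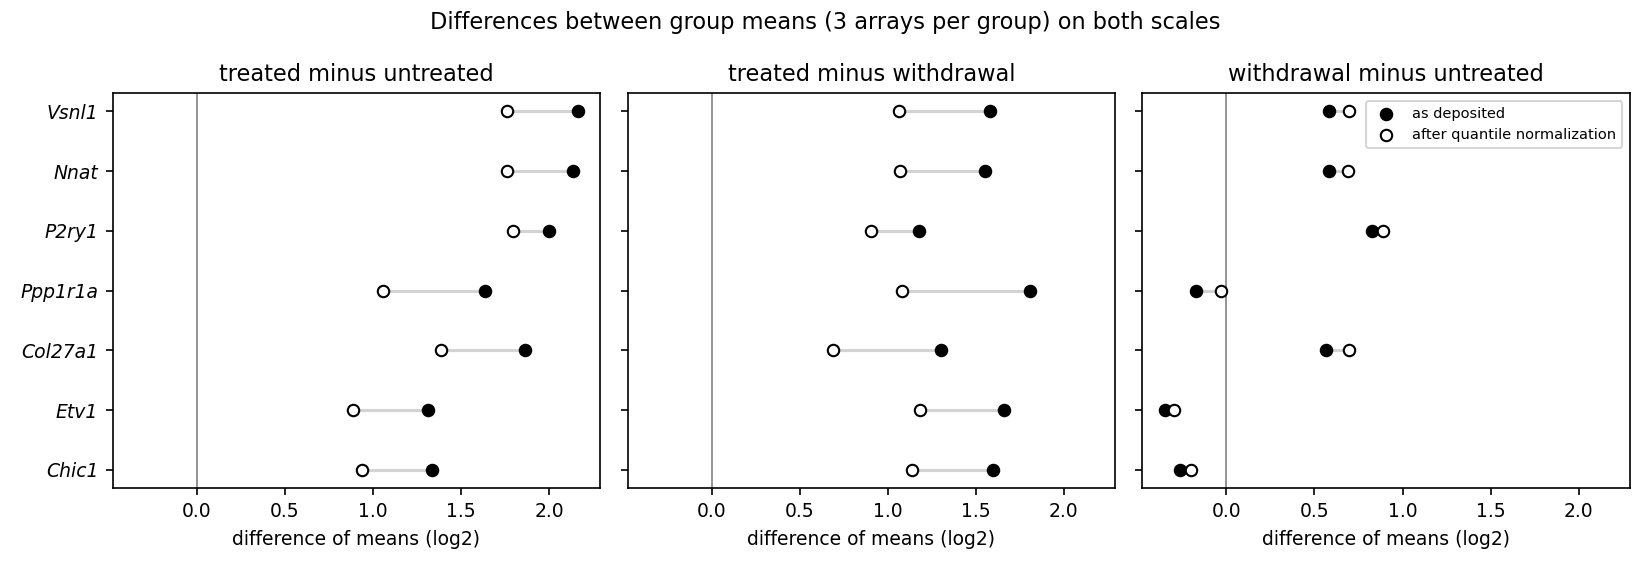
Differences between group means (horizontal axis, log2) for the 7 genes in 3 comparisons, as deposited (filled) and after quantile normalization (open). Quantile normalization made each difference of treated arrays from another group smaller, whereas withdrawal minus untreated kept its sign for each gene: above 0 for Vsnl1, Nnat, P2ry1 and Col27a1 and below 0 for Ppp1r1a, Etv1 and Chic1.

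The comparison of withdrawal with untreated rats asked how these transcripts stood 2 weeks after the drug was stopped. It was not itself among the contrasts that chose them, but it uses the same arrays and is not independent of that choice. Vsnl1, Nnat, P2ry1 and Col27a1 were higher on every withdrawal array than on any untreated array, whereas 7.65% of all tested probe sets were separated in this way. Selecting genes that are low on untreated arrays favours this direction, and selecting genes that are low on withdrawal arrays favours the opposite one. The limma estimates of withdrawal minus untreated were 0.58 ± 0.15 (SE) for Vsnl1 (adjusted p = 0.288), 0.58 ± 0.19 for Nnat (adjusted p = 0.462), 0.83 ± 0.32 for P2ry1 (adjusted p = 0.574) and 0.56 ± 0.14 for Col27a1 (adjusted p = 0.211). These correspond to ranks of 124, 123, 45 and 138 among the 20695 differences. Ppp1r1a differed by −0.17 ± 0.13 (adjusted p = 0.844), Etv1 by −0.35 ± 0.14 (adjusted p = 0.604) and Chic1 by −0.26 ± 0.19 (adjusted p = 0.823). After quantile normalization Vsnl1, Nnat, P2ry1 and Col27a1 differed by 0.70, 0.69, 0.89 and 0.70 (limma adjusted p = 0.0612, 0.27, 0.345 and 0.0752). Ppp1r1a, Etv1 and Chic1 then differed by −0.03, −0.30 and −0.20 (limma adjusted p = 0.958, 0.309 and 0.692).

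Thus 0 of the 7 genes were called by limma between withdrawal and untreated arrays, where 0.159% of probe sets were called as deposited and 0.420% after quantile normalization. At an unadjusted p under 0.05 there were 5, of which 4 were higher on withdrawal arrays, where 1553 of all 20695 probe sets were under that threshold. The count depended on treated replicate 1, which enters this comparison through the shared estimate of the spread alone. Without it Vsnl1, Nnat, P2ry1 and Col27a1 were called higher, with adjusted p = 0.0407, 0.0292, 0.00581 and 0.0323, against 1.92% of all probe sets called and 0.507% called higher. With the treated arrays left out of the fit, the same 4 genes were called, where 2.39% of probe sets were called. With array weights these 4 and Etv1, which was lower, were called, where 15.8% of probe sets were called. The choice of the genes by values of these arrays favours such calls.

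The position of the withdrawal mean can also be given as a share of the treated minus untreated difference on the log2 scale. Since the groups also differed in age, such a share does not measure a remaining effect of the drug. The withdrawal mean lay 26.9% of the way from the untreated to the treated mean for Vsnl1, 27.3% for Nnat, 30.2% for Col27a1 and 41.2% for P2ry1. After quantile normalization the shares were 39.5%, 39.3%, 50.3% and 49.5%. For Ppp1r1a, Etv1 and Chic1 the withdrawal mean lay below the untreated mean, with shares of −10.6%, −26.7% and −19.5% as deposited and −2.65%, −33.7% and −21.2% after quantile normalization. The split between these sets of 4 and 3 genes was noticed in these values and was not tested. Choosing genes by their difference from either group favours such a split.

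Genes related to the 7 by family or pathway were counted from 13 lists holding 133 genes, of which 101 passed the filter. Between treated and untreated arrays 27 rose and 8 fell, 34.7% of those tested, with a median difference of 0.15, where 28.1% of all probe sets were called and their median was 0.16. Of all probe sets 20.9% were called higher and 7.24% lower there, and 7.75% and 9.44% after quantile normalization. Without untreated replicate 2 the 35 calls were 19. Quantile normalization left 9 that rose and 13 that fell, and a median of −0.04, so the balance of directions changed with the scaling. Between treated and withdrawal arrays 38 rose and 7 fell, 44.6% of those tested, where 43.8% of all probe sets were called. After quantile normalization 12 rose and 20 fell there. Between withdrawal and untreated arrays limma called 0 of the 101, with 8 at an unadjusted p under 0.05, a share close to the 1553 of all 20695 probe sets.

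Of the other neuronal calcium sensor genes, relatives of Vsnl1, 8 were tested and 2 rose against untreated arrays. Kcnip1, which encodes a potassium channel-interacting protein, rose by 1.13 ± 0.14 (SE; adjusted p = 0.000981) and by 0.94 after quantile normalization, where it also passed. Hpcal1, the hippocalcin-like relative, rose by 0.55 as deposited but was at 0.08, not past the threshold, after quantile normalization. Ncald, neurocalcin delta, rose by 0.67 against withdrawal arrays as deposited and was at 0.14, not past the threshold, after quantile normalization. The list had 1 rise against untreated arrays without untreated replicate 2, and 2 of its 4 rises against withdrawal arrays without withdrawal replicate 2. Of the adenylyl cyclases, which make cyclic AMP, 5 were tested. Adcy3 fell by 0.39 and Adcy2 by 0.32 against untreated arrays, and by 0.56 and 0.43 after quantile normalization, though neither call was made without untreated replicate 2 or without withdrawal replicate 2. Adcy6 rose by 0.49 against withdrawal arrays and was at 0.07 after quantile normalization, not past the threshold.

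The span of Nnat overlaps that of Blcap, an imprinted neighbour, and 16 of the listed imprinted genes were tested. Against untreated arrays 4 rose and 5 fell, and after quantile normalization 1 rose and 5 fell. Meg3, a maternally expressed long non-coding RNA, rose by 1.17 ± 0.14 (SE; adjusted p = 0.000659), and by 0.66 after quantile normalization. Igf2, the growth factor gene, rose by 0.83 and was at 0.33 after quantile normalization, not past the threshold. Rasgrf1, a Ras exchange factor gene, fell by 1.17 ± 0.23 (adjusted p = 0.0052) and by 1.35 after quantile normalization. Blcap itself rose by 0.64 against untreated arrays, and was at 0.25 and not past the threshold after quantile normalization, where Nnat differed by 1.76.

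The signal peptidase complex, with which neuronatin associates in mouse beta cells, had 5 tested genes and all 5 rose against untreated arrays. Of all probe sets 20.9% were called higher there. The list was bright, with means of 10.2 to 11.5 over the arrays, and the median difference of the brightest decile was 0.53. Spcs2 and Spcs3, accessory subunits, rose by 1.04 and 1.01, and by 0.46 and 0.47 after quantile normalization, where these 2 remained past the threshold. Sec11c, a catalytic subunit, rose by 0.57 and was at −0.02 after quantile normalization. Without untreated replicate 2 the list had 2 calls. The SERCA calcium pumps of the endoplasmic reticulum, Atp2a3 and Atp2a2, rose by 1.0 and 0.55, and after quantile normalization they were at 0.43, past the threshold, and at −0.04, not past it. Of the 2 rises against untreated arrays the list had 1 without untreated replicate 2 and 1 without withdrawal replicate 2.

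Of the 9 other purinergic receptor genes tested, 0 were called by limma between treated and untreated arrays, and 0 had an unadjusted p under 0.05. P2ry1 was chosen by that contrast, so its distance from these relatives is part of the choice. The brightest, the ATP-gated channel gene P2rx4, differed by 0.26 (adjusted p = 0.174). Below the ADP receptor, Gna11, a G protein subunit gene of the Gq class, rose by 0.44 on both scales against untreated arrays, the single rise of its list of 9, which had 0 without untreated replicate 2 and 0 without withdrawal replicate 2. Against withdrawal arrays Plcb4, a phospholipase C gene, rose by 0.74 and Plcb2 fell by 0.56, with 0.59 and −0.49 after quantile normalization. That list had 3 genes that rose and 1 that fell against withdrawal arrays, but 1 and 0 without withdrawal replicate 2. Of the 7 genes for enzymes that break down extracellular nucleotides and related substrates, Enpp2 rose by 0.65 and Enpp3 by 0.50 against untreated arrays, with 0.66 and 0.27 after quantile normalization, the second not past the threshold. The list had 1 rise without untreated replicate 2. Entpd3, an ectonucleotidase of islet cells, rose by 0.99 against withdrawal arrays and was at 0.23 after quantile normalization, not past the threshold.

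Of 15 tested genes of protein phosphatase 1 and its regulators, the partners of inhibitor 1, 6 rose against untreated arrays and 2 did so after quantile normalization. Over all tested probe sets 20.9% were called higher as deposited and 7.75% after quantile normalization. Ppp1r14b, an inhibitor, and Ppp1r3d, a glycogen-targeting subunit, rose by 1.0 and 0.92, and by 0.44 and 0.74 after quantile normalization. Ppp1r11, another inhibitor, rose by 0.58 and was at 0.16 after quantile normalization, not past the threshold. Without untreated replicate 2 the list had 2 genes that rose and 1 that fell. Protein kinase A subunits, which phosphorylate inhibitor 1 or restrain that activity, were bright: 4 of 6 rose against untreated arrays and 0 did after quantile normalization (limma, 0 at an unadjusted p under 0.05). Without untreated replicate 2 the list had 2 rises. Prkar1a, Prkar1b and Prkaca rose by 0.74, 0.60 and 0.56 as deposited and were at 0.17, 0.03 and 0.02 after quantile normalization.

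Of the 9 other fibrillar collagen genes tested, 0 rose and 1 fell against untreated arrays, with a median of −0.01. At an unadjusted p under 0.05 there were 2, neither of them higher. Col27a1, which differed by 1.86, was chosen for being high on treated arrays, so its distance from these relatives is part of that choice. Col11a1 fell by 0.49 ± 0.13 (SE; adjusted p = 0.0193), and by 0.81 against withdrawal arrays. Col5a3 fell by 0.74 against withdrawal arrays. The list had 2 genes that fell against withdrawal arrays, with 5 without treated replicate 1 and 1 without withdrawal replicate 2. It was not counted without treated replicate 2. After quantile normalization 3 fell against untreated and 7 against withdrawal arrays. Stellate and matrix markers, some of them the same collagens, had list means of 8.89 to 10.3 on treated arrays, 9.70 to 9.90 on withdrawal arrays and 9.35 to 9.78 on untreated arrays.

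Among the relatives of Etv1 and the feedback genes of ERK signalling, 1 of 7 tested rose against untreated arrays. Dusp6, an ERK phosphatase gene, rose by 0.73 ± 0.16 (SE; adjusted p = 0.00927) and was at 0.28 after quantile normalization, not past the threshold. Spred3, an inhibitor of the pathway, fell by 0.33 against withdrawal arrays, and by 0.46 after quantile normalization. It was the single fall of the list as deposited, which had 0 without untreated replicate 2 and 0 without withdrawal replicate 2. Etv5, the PEA3 factor that passed the filter, was at −0.25 against untreated arrays (adjusted p = 0.15), and Etv4 did not pass the filter. For Chic1, 2 related or neighbouring genes were tested and 0 were called by limma between treated and untreated arrays (0 at an unadjusted p under 0.05). Rlim, a ubiquitin ligase gene near Chic1, differed by −0.01, and by −0.25 after quantile normalization.

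**Figure D4:**
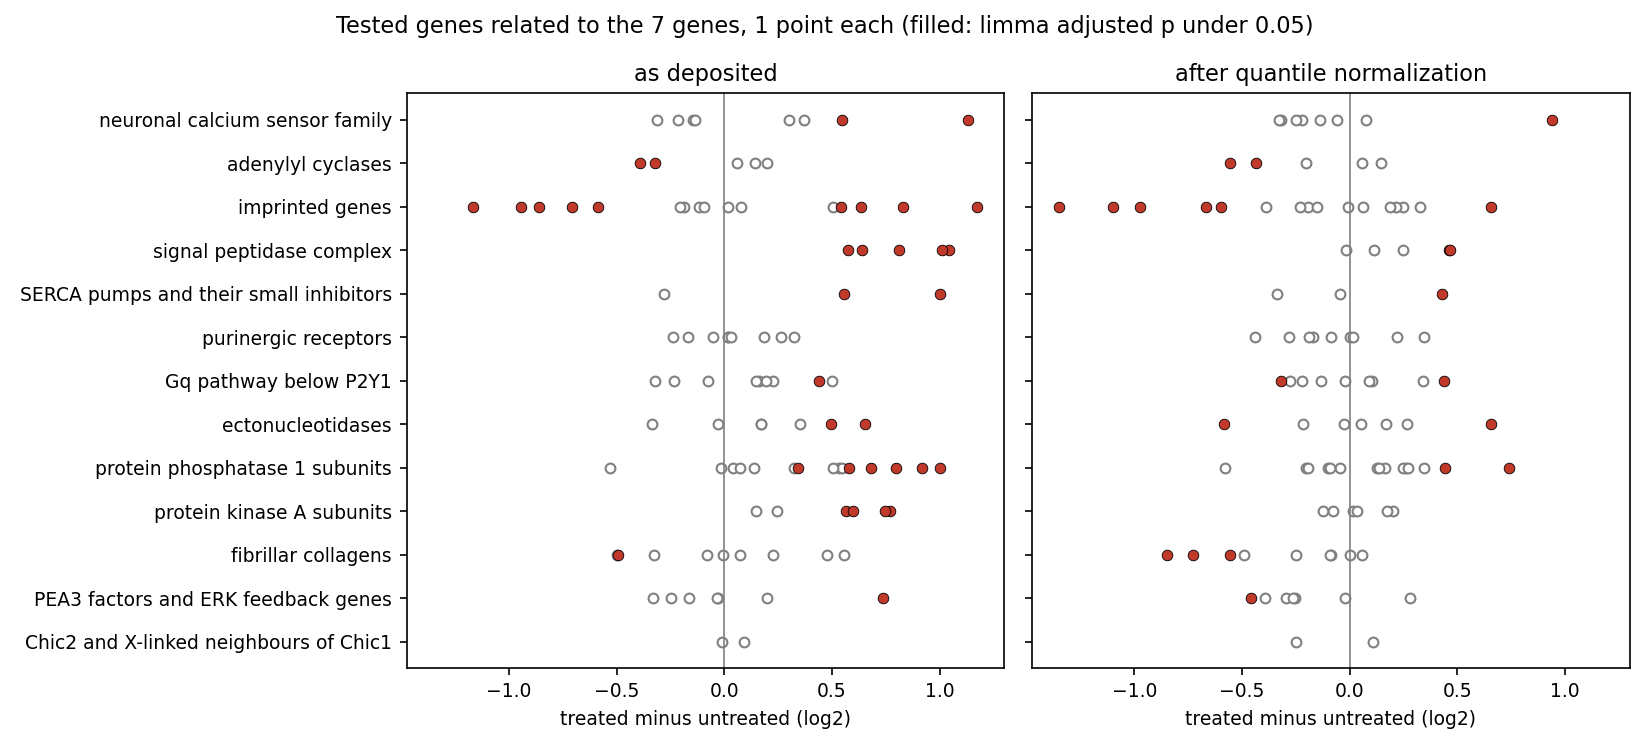
Treated minus untreated difference (horizontal axis, log2) of each tested related gene, by list, as deposited (left) and after quantile normalization (right). Filled points had a limma adjusted p under 0.05. The 5 signal peptidase genes lie right of 0 as deposited and 2 of them are filled after quantile normalization, while no fibrillar collagen is filled right of 0 in either panel.

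The genes that flank the 7 on their chromosomes in the GRCr8 gene order did not share one direction. Of the 14 nearest measured protein-coding genes, 1 on each side, 4 rose and 2 fell against untreated arrays, where 20.9% and 7.24% of all probe sets were called in those directions. After quantile normalization 1 rose and 2 fell, near the 7.75% and 9.44% of all probe sets called in those directions. Rap2b, a small GTPase gene beside P2ry1, was the one that rose on both scales, by 0.50 and 0.54. Src, the kinase gene beside Nnat, and Agmo, which encodes an ether lipid-cleaving enzyme and lies beside Etv1, fell by 0.61 and 0.63, and by 0.78 and 0.70 after quantile normalization. Pde1b, a phosphodiesterase gene whose span overlaps Ppp1r1a, differed by −0.05 (adjusted p = 0.808), where Ppp1r1a differed by 1.64. After quantile normalization these were −0.22 and 1.05. Against withdrawal arrays 5 of the 14 flanking genes rose and 3 fell, where 32.6% and 11.2% of all probe sets were called in those directions. After quantile normalization 2 rose and 4 fell there, where 14.6% and 14.5% of all probe sets were called.

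The genes whose pattern over the 9 arrays was most like each of the 7 were listed by Pearson r among 11612 other genes. The 9 arrays fall into 3 groups and share their differences in spread, so r can reflect group means as well as single arrays, and has no p. The part of the group means in r was not tested. For Vsnl1 these were Dcps, Oxct1 and Aass (r = 0.994, 0.994 and 0.991). Oxct1 encodes a ketone body-using enzyme of mitochondria and Aass an enzyme of lysine breakdown. For Nnat they were Dpy19l3, Rora and Pgap6 (r = 0.985, 0.980 and 0.975), and for P2ry1 Dhtkd1, Rora and Amy1 (r = 0.983, 0.979 and 0.968). Rora, a nuclear receptor gene, thus stood in both lists, with a treated minus untreated difference of 1.0. For Col27a1 they were Cplx2, Aldh4a1 and Gtpbp4 (r = 0.985, 0.981 and 0.975), of which Cplx2 encodes complexin 2, a regulator of exocytosis.

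For the 3 genes whose withdrawal mean was not above the untreated mean, the most similar genes had withdrawal minus untreated differences near or below 0. For Ppp1r1a they were Nus1, Mfsd13a and Fam117a (r = 0.993, 0.991 and 0.990), for Etv1 Ncoa4, Pigq and Cul5 (each r = 0.993), and for Chic1 Frs2, Smarca4 and Man2c1 (r = 0.996, 0.994 and 0.994). Their withdrawal minus untreated differences ran from −0.26 (Ncoa4) to 0.02 (Fam117a), whereas those of the genes most like Vsnl1, Nnat, P2ry1 and Col27a1 ran from 0.12 (Gtpbp4) to 1.37 (Amy1). That separation follows from choosing genes by likeness. After quantile normalization r fell to 0.742 for Cul5 with Etv1 and 0.757 for Smarca4 with Chic1, and was at least 0.857 for the others.

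Markers of some of the cell types in the samples moved with the groups beside these genes. Against untreated arrays, 20.9% of all tested probe sets were called higher and 7.24% lower as deposited. After quantile normalization 7.75% were called higher and 9.44% lower. Of 8 tested beta cell markers, 4 rose and 0 fell against untreated arrays, with list means of 11.5 on each treated and 10.8 to 11.1 on untreated arrays, and after quantile normalization 0 rose (limma, 3 at an unadjusted p under 0.05). Ins1, Ins2 and Iapp, which were not called, had mean log2 values of 14.2, 14.2 and 13.3, near the largest value of 14.4. Of 8 markers of other islet hormone cells, 3 rose on either scale, and 1 fell after quantile normalization. Of 9 neural and Schwann cell markers, which bear on Vsnl1 and Nnat because both are also neuronal genes, 1 rose on either scale, with list means of 6.34 to 6.85 on treated arrays, 6.40 to 6.41 on withdrawal arrays and 6.40 to 6.48 on untreated arrays. Of 9 lymphocyte markers, 4 fell on either scale. Of 10 acinar markers, 1 rose as deposited and 1 fell after quantile normalization. Of 8 duct markers, 0 rose and 1 fell on either scale. After quantile normalization 5 of 12 stellate and matrix markers and 3 of 9 endothelial markers fell against untreated arrays, where 1 and 0 did as deposited (limma, 1 and 0 at an unadjusted p under 0.05).

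Against withdrawal arrays, 32.6% of all tested probe sets were called higher and 11.2% lower as deposited. After quantile normalization 14.6% were called higher and 14.5% lower. Some marker lists had more calls than against untreated arrays and some fewer, such as the acinar list with 0. Of the 8 beta cell markers, 5 rose as deposited and 3 after quantile normalization. Of the 8 markers of other islet hormone cells, 5 rose as deposited, and 4 rose and 1 fell after quantile normalization. Of the 9 lymphocyte markers, 6 fell on either scale. Of 11 macrophage and myeloid markers, 2 fell as deposited, 6 after quantile normalization and all 11 without treated replicate 1. Of the 12 stellate and matrix markers, 0 were called by limma as deposited (0 at an unadjusted p under 0.05), 9 fell after quantile normalization and 5 fell without treated replicate 1. The fit without treated replicate 1 keeps treated replicate 2, where the macrophage and stellate list means were lowest (6.56 and 8.89). These lists were not counted without treated replicate 2. The part of cell composition in the values of the 7 genes was not tested.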

How the data were processed

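The authors deposited 1 table of log2 values, per the file headers a row per probe set and a column per array. The scale was inferred from the values, which are all positive and lie in a narrow range. RMA and MAS5 are named, with neither role nor version, per the submitters' processing notes. Their scaling between arrays is not given in the sources used here. The 57 control probe sets were left out. Gene names came from the platform annotation, updated by gene number through the GRCr8 gene table, and 20826 of 31042 probe sets had 1 gene symbol. Probe sets in the lowest 33.3% of mean log2 were not tested. Differences were fitted with limma 3.58.1 in R 4.3.3 (lmFit, eBayes, a term per group, all 9 arrays, p adjusted by Benjamini-Hochberg over 20695 probe sets), which was tested on simulated data. A gene was represented by its brightest probe set. Array number limits the precision, and p-values measure the spread between these arrays. The genes and lists were chosen with earlier results of these data known. From each related list up to 3 genes past the threshold in any comparison were named, by the smallest F test p, or the brightest where none passed. Blcap, Etv5 and the flanking genes were added after values were seen. For likeness, 3 genes per member were named. Alternatives were quantile normalization, centring on medians, other filters, eBayes trend and robust, array weights, 6-array fits, a replicate block, leaving out each array, and means over probe sets. Quantile normalization without treated replicate 1 was chosen after seeing the data. Replicate numbers were not used to pair the arrays in the main fit. Deviations from group means correlated between −0.283 and 0.504 for same-numbered arrays. For other arrays they correlated between −0.485 and 0.406, so these values do not settle whether the numbers mark pairs. Figures used Python 3.11.15 and matplotlib 3.10.9.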

Additional observations from a re-analysis of the deposited data

How the results depend on the processing

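The 14 differences of treated arrays from another group kept their sign under each of the 19 alternatives. The genes were chosen for being higher on treated arrays and the alternatives reuse these arrays, so that sign is no independent support. The 7 differences of withdrawal from untreated arrays kept their sign too. Called probe sets were 5817 for treated against untreated arrays, with 3558 after quantile normalization and 3209 in the 6-array fit, and from 2033 (without untreated replicate 2) to 6319 with 1 array left out. They were 9057 for treated against withdrawal arrays, with 6032 after quantile normalization and from 5587 to 9511 with 1 array left out. For withdrawal against untreated arrays they were 33, with 87 after quantile normalization, 3275 with array weights, 494 in the 6-array fit, 50 with the replicate block, from 7 to 398 with 1 array left out, and 395 after quantile normalization without treated replicate 1. Related genes called were 35 for treated against untreated arrays, with 22 after quantile normalization and from 19 to 40 with 1 array left out, and from 32 to 51 for treated against withdrawal arrays. For withdrawal against untreated arrays they were 0, with 25 under array weights, 5 in the 6-array fit, from 0 to 2 with 1 array left out and 3 after quantile normalization without treated replicate 1. Of the 7 genes, 0 were called there, but 5 with array weights, 4 in the 6-array fit, from 0 to 4 with 1 array left out and 4 after quantile normalization without treated replicate 1. The 1 array with that effect is treated replicate 1, which is no part of the difference and acts through the shared spread. The replicate block called 6414 probe sets for treated against untreated arrays and 9434 for treated against withdrawal arrays, and changed no call of the 7 genes between withdrawal and untreated arrays. With 3 arrays a group, array number limits all these values.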
